A study of Mus musculus with 43 samples.

Results

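Small RNAs of epididymal fluid were compared between the corpus and the caput of wild-type (WT) mice. The caput is the proximal segment of the epididymis that sperm enter after the testis, and the corpus is the segment that follows it. The comparison used the 3 libraries titled WT corpus fluid and the 3 titled WT caput fluid, 6 of the 43 libraries of the series, and covered every RNA class in the fluid table. Of 3178 listed RNAs, 2023 passed the filter on low counts and were tested.

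All mice were of the FVB strain and 8 to 12 weeks old. Fluid was released from dissected segments into medium, and sperm, debris and extracellular vesicles were spun out, so that the libraries hold RNA left in the supernatant. The study's methods give the RNA of 3 mice pooled into each library, and libraries were made by OTTR-seq after treatment with polynucleotide kinase (PNK). The other groups with values given here were WT cauda fluid, caput and corpus fluid of Rnase9-12KO mice (KO), and WT caput and corpus tissue. KO mice carry a homozygous deletion of the Rnase9, Rnase10, Rnase11 and Rnase12 genes. Tissue libraries were made by ARM-seq and fitted apart. Each group named so far had 3 libraries. The fluid fit also held KO cauda fluid (3 libraries). The tissue fit also held KO caput, WT cauda and KO cauda tissue (3 libraries each) and KO corpus tissue (2 libraries).

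tRNA fragments (tRFs) are cut from mature tRNAs and are named here by the end they keep: a tRF_5' or tRF_3' aligns to that end of the tRNA, a tRF_other to neither end, and a full-length tRNA spans both. Fragments of ribosomal RNA (rsRNAs) and microRNAs (miRNAs), which guide silencing proteins to transcripts through their seed, are other groups known from epididymal fluid. Sperm change their small RNA content as they move along the epididymis, and tRFs cut at the anticodon are known to be plentiful in this tissue and in mature sperm.

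The mature miRNAs below belong to genes whose level differed between the segments or to a gene cluster with such a gene, and they are printed because several of those genes share a seed. Sequences are from RefSeq (GRCm38.p6), with the seed, bases 2 to 8, in capitals. The table counted whole precursor genes, so the arm behind a count was not resolved. The miRNAs of genes lower in corpus fluid come before those of genes higher in corpus fluid.
miR-204-5p: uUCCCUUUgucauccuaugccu
miR-135a-5p: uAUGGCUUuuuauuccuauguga
miR-148a-3p: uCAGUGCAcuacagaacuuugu
miR-200b-3p: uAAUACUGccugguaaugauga
miR-429-3p: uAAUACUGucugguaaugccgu
miR-99b-5p: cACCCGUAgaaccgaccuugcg
let-7e-5p: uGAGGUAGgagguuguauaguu
miR-125a-5p: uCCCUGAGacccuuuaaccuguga
miR-17-5p: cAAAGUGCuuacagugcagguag
miR-20a-5p: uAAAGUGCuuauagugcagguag
miR-34b-5p: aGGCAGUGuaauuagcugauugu
miR-196a-5p: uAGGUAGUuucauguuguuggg
miR-196b-5p: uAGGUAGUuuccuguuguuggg
miR-465a-5p: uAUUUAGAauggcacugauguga
miR-465b-5p: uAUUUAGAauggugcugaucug
miR-465c-5p: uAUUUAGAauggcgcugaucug
miR-743b-3p: gAAAGACAucaugcugaauaga
The seed AAUACUG is shared by Mir200b and Mir429, AAAGUGC by Mir17 and Mir20a, AGGUAGU by both Mir196a genes and Mir196b, and AUUUAGA by the Mir465 genes. Of 42 called miRNA genes with a Mir symbol, 31 had a mature sequence in the RefSeq table. Mature tRNA and rRNA sequences were not used here.

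The 6 libraries held 8117232, 6072858 and 8274251 counts in caput fluid and 6752462, 10172577 and 3989262 in corpus fluid. A read was counted on every RNA it matched best, so that near-identical tRNA isodecoders and repeated genes share reads and the totals are not reads. Correlations of log2 CPM (counts scaled to a common library size) between libraries of 1 group were 0.965 to 0.981. The 3 WT caput fluid libraries, and the KO caput fluid libraries as well, carry the section tag Cauda beside titles and descriptions that name the caput. The titles were followed, and the conflict touches every value given for caput fluid, WT or KO. Mir196b, a miRNA of a Hox gene cluster picked after its values were seen, was at 0, 0.175 and 0.150 CPM in the 3 WT caput libraries. Its mean was 0.202 ± 0.242 CPM in KO caput fluid and 3.997 ± 0.888 CPM in WT cauda fluid (SD, n = 3). A gene picked from these same libraries cannot settle which segment they hold. No protein-coding marker of a segment was tested.

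An RNA was called where edgeR's quasi-likelihood test, fitted on all 18 fluid libraries, gave a Benjamini-Hochberg adjusted p below 0.05 and the log2 fold change (corpus over caput) exceeded 1 in either direction. By this rule 166 of 2023 RNAs were higher in corpus fluid (8.21%) and 193 were lower (9.54%). The 3 corpus libraries lay wholly above the 3 caput libraries for 16.8% of RNAs and wholly below for 21.5%. The median log2 fold change of all RNAs was -0.23 under the TMM scaling used, and other scalings raised it by up to 0.52, so that levels are relative to the scaling throughout. Fewer molecules of an RNA in the fluid and a larger amount of the other RNAs cannot be told apart in such data.

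The classes moved apart from each other. Of 198 tested tRF_other, 71 were higher in corpus fluid and 1 was lower, with a median log2 fold change of 1.07. Of 180 tRF_3', 2 were higher and 42 were lower (median -0.37), and of 183 tRF_5', 10 were higher and 25 were lower (median -0.44). Fragments on rRNA repeats of the genome were higher for 54 of 279 and lower for 0 (median 0.48). Small nuclear RNAs (snRNAs), which build the spliceosome, were higher for 12 of 185 and lower for 49 (median -0.92). Among 277 miRNA genes 14 were higher and 48 lower, among 24 full-length tRNAs 0 were higher and 6 lower, and among 68 small nucleolar RNAs (snoRNAs) 0 were higher and 4 lower. Of 352 piRNA precursors 7 were lower and 0 higher. With TMM factors taken from the RNAs other than tRNA and rRNA fragments, 115 tRF_other and 104 rRNA repeats were called higher and 0 of either lower, and the medians of tRF_5' and tRF_3' turned to 0.11 and 0.21.

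**Figure D1:**
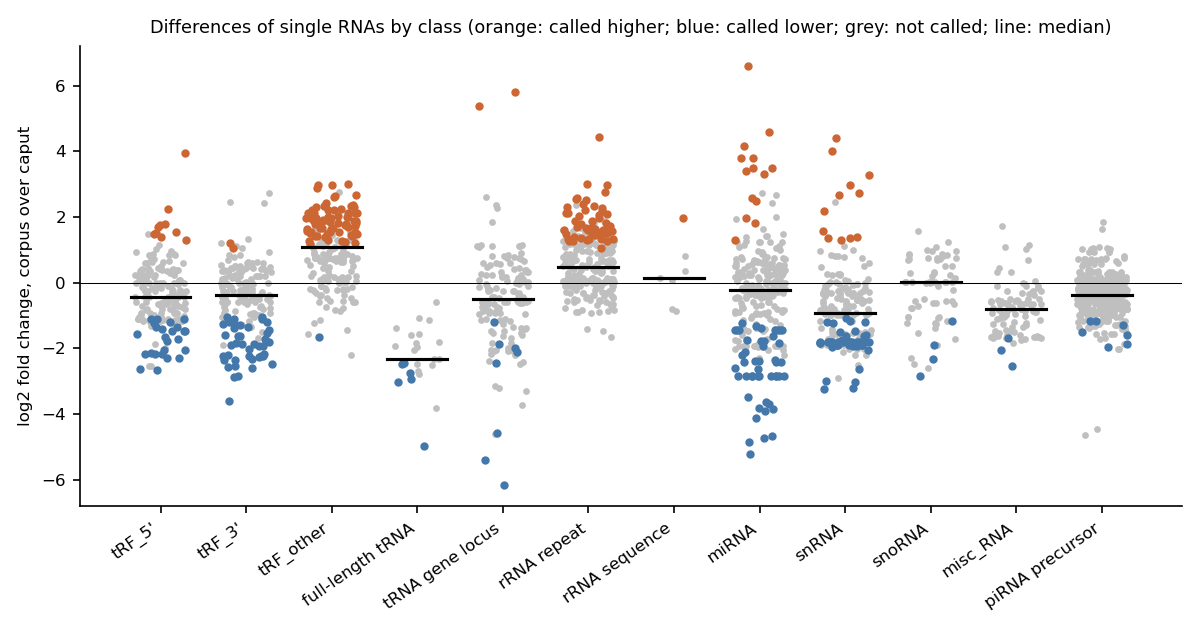
Log2 fold change of corpus over caput WT fluid (vertical axis) for each tested RNA, by RNA class (horizontal axis). Orange points were called higher, blue points lower and grey points neither, and the black line is the median of the class. The orange points lie mostly in tRF_other and rRNA repeats, the called points of tRF_3' and snRNAs are mostly blue, and most points of either class are grey.

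tRF_other, the fragments that reach neither end of the tRNA, took 2.30, 2.63 and 1.75% of counts in the caput libraries and 7.91, 4.38 and 6.82% in the corpus libraries. All corpus libraries lay above all caput libraries. tRF_3' went the other way, from 42.4, 42.6 and 43.99% in caput to 38.6, 37.2 and 30.8% in corpus fluid. tRF_5' took 34.1, 31.1 and 30.3% in caput and 37.2, 36.1 and 37.7% in corpus fluid. Together tRFs took 77.03% ± 1.53 (SD, n = 3) of counts in caput and 78.9% ± 4.30 in corpus fluid, and these groups overlapped. For tRF_other, tRF_3' and tRF_5' each the 2-sided exact permutation test gave p = 0.1, the smallest that 3 against 3 libraries allow, and an adjusted p of 0.19 over 19 shares.

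**Figure D2:**
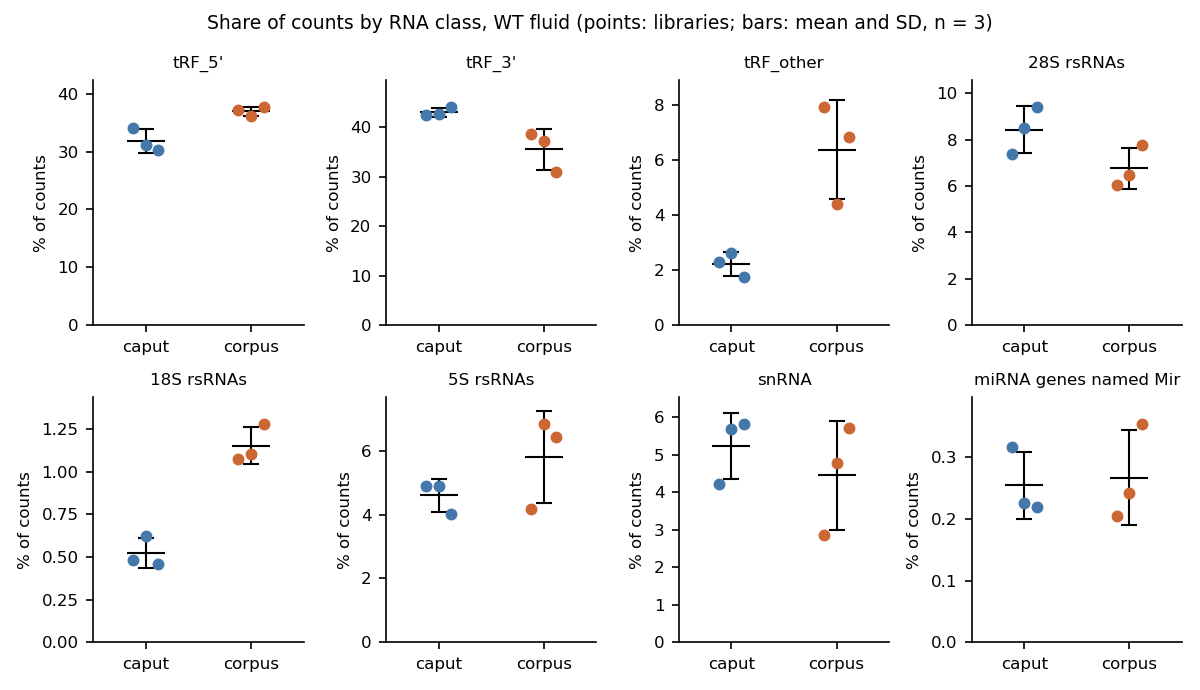
Share of all counts (vertical axes, percent, each from 0) taken by 8 RNA classes in the 3 caput and 3 corpus WT fluid libraries (points), with the mean and SD. tRF_5', tRF_other and 18S rsRNAs are higher and tRF_3' lower in all corpus libraries, and the shares of 28S rsRNAs, 5S rsRNAs, snRNAs and miRNA genes with a Mir symbol overlap between the segments.

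The rise of tRF_other held within single tRNA species, where no scaling between libraries enters. tRF_other were taken as a percent of the tRF_5', tRF_3' and tRF_other counts of 1 anticodon in each library, for the 50 anticodons with at least 100 counts in each library. The 3 corpus libraries lay above the 3 caput libraries for 36 of 50 anticodons (72%) and below for 0. In elongator Met-CAT, the methionine tRNA used inside a protein, tRF_other were 9.53, 7.48 and 5.38% in caput and 67.8, 31.2 and 48.8% in corpus fluid. In Gln-TTG, a glutamine tRNA, they were 16.6, 13.8 and 12.5% in caput and 55.7, 44.8 and 58.8% in corpus fluid. In Asn-GTT they were 6.72, 3.10 and 3.17% against 46.3, 25.4 and 39.7%. Every corpus library of these tRNAs exceeded every caput library by a wide margin, with corpus replicate 1 or 3 the highest. Among the 3 corpus libraries, replicate 1 was the highest for 24 anticodons and replicate 3 for 22. Without replicate 1, 36 anticodons still separated upward, and 1 then separated downward.

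The lysine tRNAs and Arg-TCG are further examples. In Lys-TTT tRF_other were 3.16, 2.14 and 2.03% in caput and 28.9, 17.4 and 28.5% in corpus fluid, and in Lys-CTT 7.80, 9.12 and 4.71% against 26.3, 20.2 and 34.97%. Arg-TCG gave 23.2, 16.0 and 21.99% against 48.7, 44.8 and 54.8%. These 3 tRNAs separated fully by segment. In Gly-GCC, the source of the most abundant 5' fragments, tRF_other also separated, at 2.52, 2.25 and 1.85% in caput and 3.04, 6.34 and 6.67% in corpus fluid.

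Leucine, serine and selenocysteine tRNAs, which carry a long variable arm, differed in this respect from the others, a grouping made after the values were seen and given as a description. Of their 11 anticodons 1, Ser-GCT, separated upward, against 35 of the 39 other anticodons. None of the 5 leucine anticodons separated, and their mean share of tRF_other in corpus fluid did not exceed 0.326%. Among the 39 others, Asp-GTC, Glu-CTC, Gly-CCC and Sup-TCA overlapped between segments. The median share was 0.237% in caput and 0.230% in corpus fluid over the 11, and 2.21% and 8.66% over the 39.

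**Figure D3:**
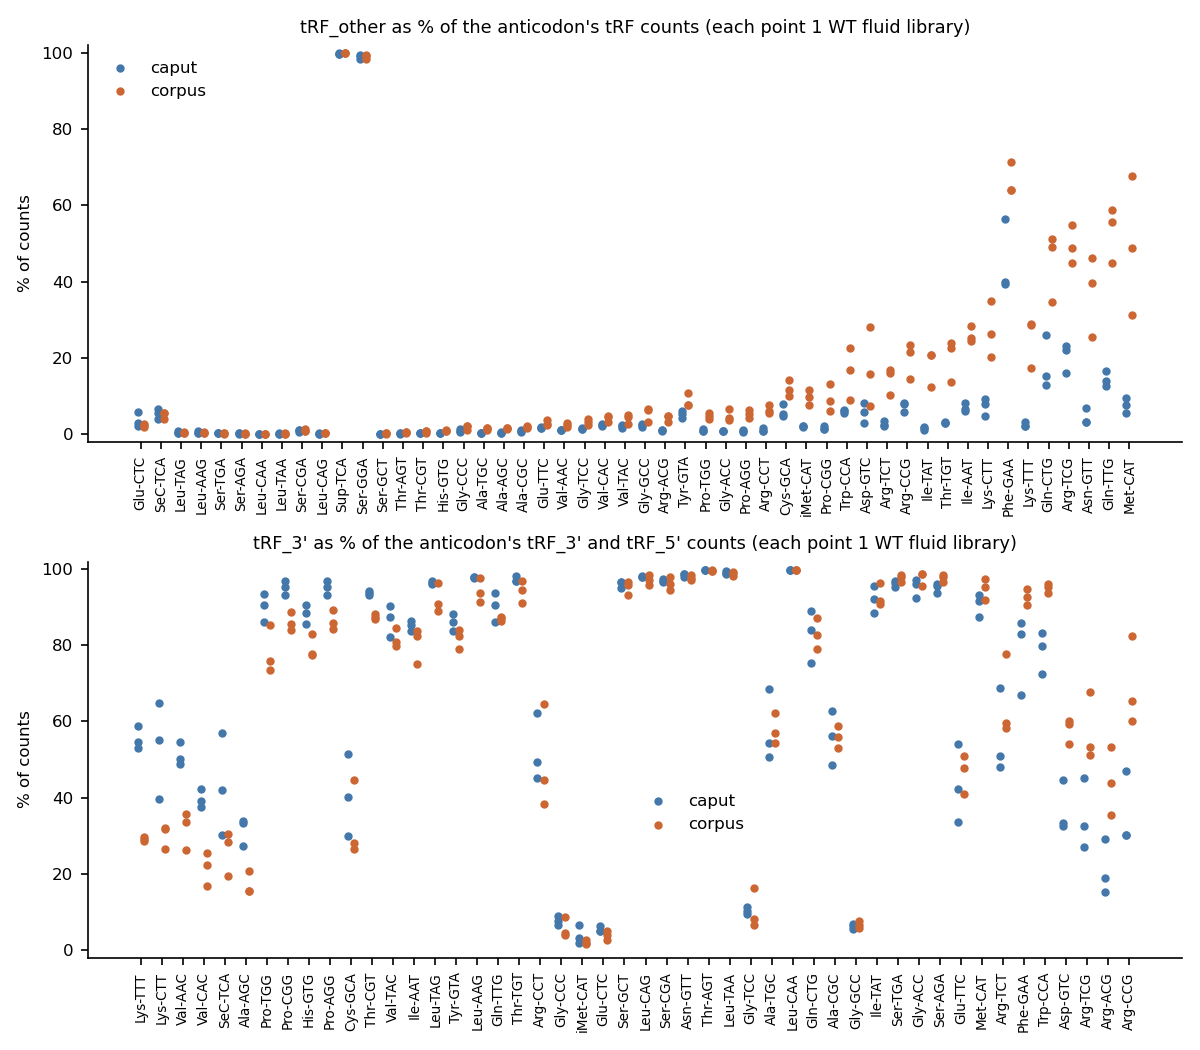
Top, tRF_other as a percent of the tRF counts of each anticodon (vertical axis), with anticodons ordered by the difference of means. Bottom, tRF_3' as a percent of tRF_3' and tRF_5' counts. Each point is 1 WT fluid library, blue for caput and orange for corpus. At the right of the top panel Met-CAT, Gln-TTG and Asn-GTT show the widest gaps between segments, and in the bottom panel Lys-TTT stands at the left and Arg-CCG at the right end.

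For levels, counts were also summed by anticodon and fragment type and fitted together. A read shared by several isodecoders of an anticodon enters its sum once for each of them. Summed CPM therefore exceed the amount of the fragment where isodecoders share reads, and their sizes are not compared between anticodons. In that fit 74 of 1330 entries (5.56%) were called higher and 61 (4.59%) lower, and an RNA present in both fits lay 0.43 higher on the log2 scale than in the fit of single RNAs. Of 51 tRF_other sums 23 were higher and 0 lower, and 36 lay wholly above and 1 wholly below the caput libraries, against 16.2% and 15.7% of all sums. Gln-TTG tRF_other stood at 1602, 1209 and 969 CPM in caput and 10193, 3585 and 4984 CPM in corpus fluid. The groups did not overlap, and the log2 fold change was 2.31 ± 0.42 (SE, edgeR, adjusted p = 0.0029). Lys-TTT tRF_other rose from 303, 155 and 177 CPM to 1600, 557 and 1006 CPM, a log2 fold change of 2.32 ± 0.47 (edgeR, adjusted p = 0.0047). Val-CAC rose by 2.30 and Val-AAC by 2.54, and so did Asp-GTC (2.08), Arg-TCG (1.88) and Lys-CTT (1.66). Corpus replicate 1 was the highest for all 7 of these. Val-TAC, the valine anticodon outside the naming rule, was at 1.87 with all libraries (edgeR, adjusted p = 0.0054). Without corpus replicate 1, Arg-TCG (1.41), Asp-GTC (1.48), Val-CAC (1.89) and Lys-CTT (1.40) were no longer called. Without caput replicate 3, Asp-GTC (1.82), Val-CAC (2.23) and Lys-CTT (1.39) were not. Lys-CTT was also not called without caput replicate 1 (1.79) or corpus replicate 3 (1.59). Over all 3 end types, 28 tRF sums were called higher, and 13 without corpus replicate 1.

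Of the other anticodons of the naming rule, His-GTG (1.39), Glu-TTC (1.57) and Gly-GCC tRF_other (1.93) had corpus libraries wholly above the caput libraries without passing the test (edgeR, adjusted p = 0.19, 0.18 and 0.084). Gln-CTG (1.17), Gly-CCC (0.66) and Glu-CTC (-0.03) were not called either. Without caput replicate 2, Gln-CTG tRF_other was called at 1.63.

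At the 3' end the fall was led by Lys-TTT, a lysine tRNA. Summed Lys-TTT tRF_3' stood at 4937, 3864 and 5007 CPM in caput and 1126, 786 and 732 CPM in corpus fluid. Every corpus library lay below every caput library by more than 3-fold, with a log2 fold change of -2.39 ± 0.44 (edgeR, adjusted p = 0.0035). Lys-CTT tRF_3' stood at 4295, 6146 and 5139 CPM against 2767, 1989 and 1314 CPM (-1.36 ± 0.41, edgeR, adjusted p = 0.038), and lost the call without any 1 of caput replicates 1 (-1.48), 2 (-1.22) and 3 (-1.37) or corpus replicates 2 (-1.35) and 3 (-1.13). In all, 8 of 49 tRF_3' sums were lower and 1 was higher.

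The proline tRNAs moved together at the 3' end. Pro-AGG tRF_3' stood at 17670, 11579 and 19539 CPM in caput and 5973, 4633 and 3675 CPM in corpus fluid (-1.77, edgeR, adjusted p = 0.011). Pro-CGG and Pro-TGG gave -1.77 and -1.64, and a read that matches several of these tRNAs equally well counts on each. Asn-GTT tRF_3' (-1.72), Ala-AGC tRF_3' (-1.74) and the selenocysteine tRNA SeC-TCA tRF_3' (-1.88) fell too. The 1 riser was Arg-CCG tRF_3', at 1804, 1729 and 1976 CPM in caput and 5511, 5358 and 3060 CPM in corpus fluid (1.34 ± 0.35, edgeR, adjusted p = 0.017).

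Summed His-GTG tRF_3', among the most abundant 3' fragments, stood at 74642, 54283 and 63965 CPM in caput and 68612, 63068 and 43006 CPM in corpus fluid. In these sums the segments overlapped and the difference was -0.14 ± 0.39. The entries tRNA-His-GTG-2 and tRNA-His-GTG-3 had nearly equal caput means of 36739 and 36738 CPM, so the sum counts shared reads more than once. Seen by single isodecoder, tRNA-Lys-TTT-1 tRF_3' fell by 2.84 and tRNA-Thr-CGT-3 tRF_3' by 2.53 on the log2 scale (edgeR, adjusted p = 0.0011 and 0.0012), and tRNA-Trp-CCA-2 tRF_3' rose by 1.20 and tRNA-Arg-CCG-3 tRF_3' by 1.05. The last named was called with all 6 libraries and lost the call without any of caput replicates 1 to 3 (1.04, 0.93 and 1.19) or corpus replicates 1 and 2 (1.03 and 0.87). tRNA-Trp-CCA-2 lost it without caput replicate 1 (1.20), caput replicate 2 (1.09) or corpus replicate 1 (0.97). The single tRNA-His-GTG-2 and tRNA-His-GTG-3 tRF_3' (both -0.59) and tRNA-Leu-CAG-2 tRF_3' (-0.28), the 3 tRF_3' entries with the highest mean level, were not called.

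At the 5' end, fragments of 2 of the 3 valine anticodons were called higher. Summed Val-CAC tRF_5' rose from 6494, 5466 and 6437 CPM in caput to 26866, 20635 and 17799 CPM in corpus fluid, a log2 fold change of 1.83 ± 0.35 (edgeR, adjusted p = 0.0042). Val-AAC tRF_5' rose from 7911, 6282 and 7719 CPM to 32546, 22975 and 19836 CPM (1.78 ± 0.35, edgeR, adjusted p = 0.0042). The lowest corpus library of either was more than 2 times its highest caput library, and both calls held without any 1 library. Val-TAC tRF_5' was not called (1.27, edgeR, adjusted p = 0.085). Single isodecoders were higher too, with 1.38 for tRNA-Val-CAC-2 tRF_5' and 2.23 for tRNA-Val-AAC-4 tRF_5'.

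Leu-AAG and Leu-TAG tRF_5' were also called higher (1.91 and 1.83), from 145, 163 and 156 CPM to 1048, 251 and 442 CPM for Leu-AAG, with corpus replicate 1 far above the other libraries. Lower at the 5' end were Trp-CCA, at 2656, 2809 and 1881 CPM in caput and 1422, 698 and 841 CPM in corpus fluid (-1.31 ± 0.36, edgeR, adjusted p = 0.020), Ile-TAT (-1.82) and Met-CAT (-2.05). Among single tRF_5', tRNA-Gln-CTG-4 (-2.66) and tRNA-Trp-CCA-1 (-2.18) fell.

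Summed Gly-GCC tRF_5', the most abundant 5' fragments, stood at 116137, 93936 and 107650 CPM in caput and 212957, 167222 and 131248 CPM in corpus fluid. In these sums the corpus libraries were all higher, but the difference of 0.69 ± 0.31 did not pass the test (edgeR, adjusted p = 0.17). The entries tRNA-Gly-GCC-2, tRNA-Gly-GCC-3 and tRNA-Gly-GCC-4 had nearly equal values, so the sum counts shared reads more than once. The single tRNA-Gly-GCC-2 tRF_5' stood at 39276, 34642 and 43892 CPM in caput and 53413, 45967 and 39051 CPM in corpus fluid. It overlapped between segments and differed by 0.23. Glu-CTC (0.51), Glu-TTC (0.65), His-GTG (0.81), Lys-TTT (-0.78), Gly-CCC (-0.25), Gln-CTG (-0.75), Arg-TCG (-0.67), Asp-GTC (-0.14), Gln-TTG (-0.11) and Lys-CTT tRF_5' (-0.03) were not called.

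The balance between the 2 ends, tRF_3' as a percent of tRF_3' and tRF_5' counts, fell without overlap in 14 of 48 anticodons (29.2%) and rose in 7 (14.6%). Lys-TTT went from 53.2, 54.6 and 58.8% in caput to 28.6, 29.7 and 29.1% in corpus fluid. Val-CAC went from 39.0, 42.2 and 37.5% to 25.5, 22.2 and 16.8%, and Ala-AGC from 27.3, 33.3 and 34.0% to 20.8, 15.6 and 15.6%. In these tRNAs the balance moved to the 5' end in every corpus library. Of 5 arginine anticodons, Arg-ACG, Arg-CCG and Arg-TCG moved to the 3' end without overlap, and Arg-CCT and Arg-TCT overlapped. Arg-CCG went from 30.2, 30.1 and 47.1% to 60.01, 82.6 and 65.3%, and Arg-ACG from 15.3, 18.8 and 29.1% to 43.8, 53.3 and 35.3%. Trp-CCA went from 79.8, 72.5 and 83.2% to 95.3, 96.2 and 93.8%, and Asp-GTC from 44.6, 32.7 and 33.5% to 59.3, 54.0 and 60.2%. Gly-GCC remained at the 5' end throughout, with tRF_3' between 5.60 and 7.55% in all 6 libraries.

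Full-length tRNAs were rare and lower in corpus fluid, at 0.0248, 0.0396 and 0.0148% of counts in caput and 0.000903, 0.0111 and 0.00887% in corpus fluid. tRNA-His-GTG-2 fell from 5.19, 10.8 and 4.49 CPM to 0.448, 2.26 and 0.805 CPM (-2.44 ± 0.57, edgeR, adjusted p = 0.0052). The initiator tRNA-iMet-CAT-1, which starts protein synthesis, had 40 counts over the caput libraries and 1 over the corpus libraries, a ratio of 44.8 with an exact 95% counting interval of 7.59 to 1812. The interval covers counting error only. tRNA-Asp-GTC-1, the most abundant full-length tRNA, did not pass the test at -1.93 (edgeR, adjusted p = 0.19).

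At the tRNA gene loci, where reads run outside the mature tRNA, 2 of 138 were higher and 8 lower. tRNA-Met-CAT-1-1 fell from 71.6, 67.9 and 92.8 CPM to 10.2, 21.5 and 22.5 CPM (-2.10 ± 0.41, edgeR, adjusted p = 0.0024). tRNA-Arg-ACG-1-1 had 48 counts in caput and 2 in corpus fluid, a ratio of 26.9 (95% interval 7.04 to 228). The loci tRNA-Val-AAC-1-2 and tRNA-Trp-CCA-3-2 had 0 counts in caput fluid, with 18 and 14 in corpus fluid, and so passed the filter through other groups. The corpus libraries held 1.79, 0.188 and 0.805 CPM of the former and 0.299, 0.565 and 1.21 CPM of the latter. Their pooled corpus levels were 5.36-fold and 4.17-fold a floor of 3 counts over the caput group. These figures leave out the error of the corpus counts and are no lower bound. Both loci lost the call without any caput library. Val-AAC-1-2 also lost it without corpus replicate 1 or 3, and Trp-CCA-3-2 without corpus replicate 2 or 3. The fitted log2 fold changes there, 4.79 to 5.99, depend on the prior count and are no bound.

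**Figure D4:**
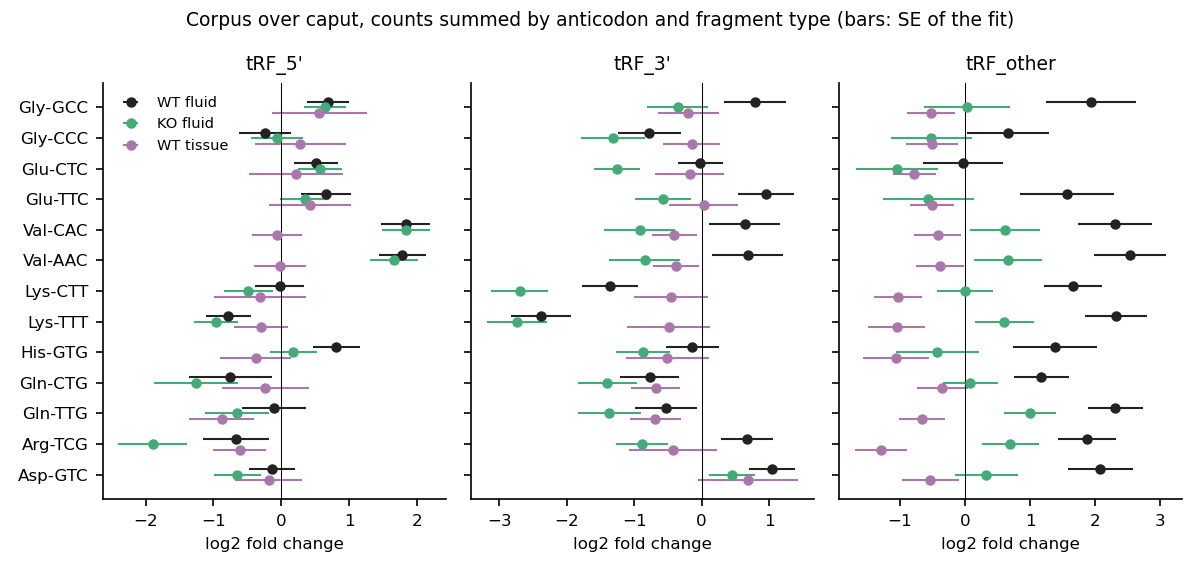
Log2 fold change of corpus over caput (horizontal axis) with the SE of the fit, for counts summed by fragment type over the 13 anticodons fixed by the naming rule (vertical axis), in WT fluid (black), KO fluid (green) and WT tissue (purple). In WT fluid these values lie 0.43 above those of single RNAs, and the offset is another one in KO fluid and tissue. The 18S rRNA sequence, present in both fits, was at 1.25 in sums and 0.81 among single RNAs in WT fluid. It was at 0.56 and 0.76 in KO fluid and at 2.03 and 2.31 in tissue. Gaps between the colours therefore include a difference of scaling. tRF_other of WT fluid lie right of those of KO fluid and of tissue in all 13 rows, and Val-CAC and Val-AAC tRF_5' lie near 2 in both fluids and near 0 in tissue.

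KO fluid and WT tissue were fitted for the same contrast, and their values stand here beside those of WT fluid. In KO fluid 11.5% of RNAs were called higher and 7.86% lower, and in WT tissue 9% and 2.81%. Val-CAC tRF_5' differed by 1.84 in KO fluid (edgeR, adjusted p = 0.0027) and by -0.06 in tissue, and Lys-TTT tRF_3' by -2.74 in KO fluid (edgeR, adjusted p = 0.0015) and by -0.49 in tissue. tRF_3' sums were lower for 24 of 49 anticodons in KO fluid and for 0 of 49 in tissue, against 7.74% of all sums in KO fluid and 3.55% in tissue (9.92% higher). tRF_other sums were higher for 2 of 51 in KO fluid, against 10.7% of all sums. In tissue all 50 tRF_other sums had a log2 fold change below 0, with 5 called lower. The fit of sums shifted WT fluid, KO fluid and tissue by unlike amounts. In the fit of single RNAs, 27 of 198 tRF_other were higher and 1 lower in KO fluid (median 0.50), against 71 and 1 in WT fluid. Of 180 single tRF_3', 0 were higher and 64 lower in KO fluid (median -1.02), against 2 and 42 in WT fluid. In tissue 29 of 197 single tRF_other were lower and 0 higher. Within anticodons, 28 of the 50 shares of tRF_other rose without overlap in KO fluid and 0 fell. Leu-AAG tRF_5' differed by -0.10 in KO fluid. In a test of the difference between KO and WT, adjusted over all 2023 RNAs, 1.68% of RNAs were higher in KO and 0.148% lower, and no RNA named here and no tRF_5', tRF_3' or tRF_other passed, and fluid and tissue, made by different protocols, were not tested against each other.

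Ribosomal RNA fragments were split by the part of the rRNA they came from. 18S rsRNAs, from the small ribosomal subunit, took 0.485, 0.622 and 0.460% of counts in caput and 1.08, 1.11 and 1.28% in corpus fluid. 5.8S rsRNAs went from 0.00283, 0.00402 and 0.00283% to 0.0153, 0.0151 and 0.0156%. Both separated fully (2-sided exact permutation p = 0.1, the smallest possible, adjusted p = 0.19). 28S rsRNAs, the largest group, took 7.40, 8.52 and 9.40% in caput and 6.04, 6.49 and 7.76% in corpus fluid and overlapped, as did 5S rsRNAs at 4.598% ± 0.51 and 5.81% ± 1.43 (SD, n = 3).

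The 5.8S rRNA sequence rose from 30.6, 42.7 and 35.03 CPM to 154, 145 and 125 CPM, a log2 fold change of 1.97 ± 0.38 (edgeR, adjusted p = 0.0021). The 18S rRNA sequence stood at 3116, 3930 and 3447 CPM in caput and 6243, 6348 and 5781 CPM in corpus fluid without overlap, and its difference of 0.81 ± 0.29 missed the threshold (edgeR, adjusted p = 0.057), while in the fit of sums it was called at 1.25 (edgeR, adjusted p = 0.011), and library totals (1.10) or TMM from the other RNAs (1.34) called it as well. The listed 28S rRNA sequences had values below 0 and were not called, 28S_rRNA_1 at 36681, 42020 and 55045 CPM in caput and 23233, 25370 and 25453 CPM in corpus fluid (-0.85, edgeR, adjusted p = 0.064) and 28S_rRNA_2 at -0.79 (edgeR, adjusted p = 0.068). In the fit of sums they were at -0.40 and -0.34 (edgeR, adjusted p = 0.47 and 0.52). 5S rRNA (0.07) and the mitochondrial LSU (0.34) and SSU (0.13) rRNAs were not called.

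Genomic repeats annotated as 28S rRNA, unlike the 28S rRNA sequences, were called higher in the fit of sums. Their summed level went from 4570, 4438 and 3444 CPM to 15319, 11452 and 10222 CPM, a log2 fold change of 1.57 ± 0.27 (edgeR, adjusted p = 0.0019), and repeats annotated as 18S rRNA rose by 1.36 ± 0.31 (edgeR, adjusted p = 0.0092). The single repeats rmsk_28S_780 (2.38) and rmsk_28S_252 (2.56) were among the risers. rmsk_28S_780 stood at 203, 317 and 293 CPM in caput and 1830, 1217 and 1192 CPM in corpus fluid. In KO fluid the summed 28S repeats differed by 0.57 and in tissue by 1.41, the latter called. Each of these contrasts is shifted by its own amount in the fit of sums.

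Among the 230 tested miRNA genes with a Mir symbol, 13 were higher and 29 lower in corpus fluid. As a share of counts they overlapped between segments, 0.316, 0.226 and 0.220% in caput and 0.205, 0.242 and 0.352% in corpus fluid. The whole annotated class went from 1.12, 1.20 and 1.27% to 0.433, 0.679 and 0.781%, but most of its counts, between 51.7 and 81.98% in each library, lay on 7 predicted genes that share their sequence with 7SL, the RNA of the signal recognition particle. The annotated 7SL genes Rn7s1 and Rn7s2 stood at 5812, 6303 and 8202 CPM in caput and 3483, 3698 and 3290 CPM in corpus fluid, both at -0.96 without passing the test (edgeR, adjusted p = 0.085).

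Mir204, a miRNA known from pigmented epithelia, had the smallest p of the lower miRNAs. It stood at 48.2, 30.4 and 35.9 CPM in caput and 5.38, 6.03 and 7.25 CPM in corpus fluid. The lowest caput library was more than 4 times the highest corpus library, and the log2 fold change was -2.62 ± 0.41 (edgeR, adjusted p = 0.0011). Mir135a-1 went from 31.7, 20.8 and 25.4 CPM to 4.78, 3.01 and 7.25 CPM (-2.39, edgeR, adjusted p = 0.0019). Mir148a went from 136, 114 and 126 CPM to 37.0, 36.4 and 48.1 CPM (-1.63 ± 0.39, edgeR, adjusted p = 0.0065). Mir375, a miRNA of endocrine and secretory cells, went from 3.99, 5.42 and 4.19 CPM to 0.448, 0.471 and 0.201 CPM (-3.47, edgeR, adjusted p = 0.0013), and Mir8114 from 6.39, 14.9 and 9.88 CPM to 0.299, 1.04 and 0.604 CPM (-3.90, edgeR, adjusted p = 0.0012). All 5 separated fully and kept the call without any 1 library, although Mir148a lost it when libraries were scaled by their totals (-1.31). Mir135a-1 and Mir375 were picked for mention after their values were seen.

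The epithelial miR-200 family, which holds epithelial cells in their state, lay lower in corpus fluid. Of 6 tested members of the list with miR-205, 2 were called lower, 0 higher and all 6 had a log2 fold change below 0 (median -1.33, against -0.23 for all RNAs). Mir200b went from 43.9, 28.2 and 38.0 CPM to 12.5, 4.80 and 15.9 CPM (-1.74 ± 0.48, edgeR, adjusted p = 0.015), and Mir429 from 20.5, 8.75 and 11.7 CPM to 2.69, 1.13 and 4.23 CPM (-2.39 ± 0.61, edgeR, adjusted p = 0.010). They share a seed and lie with Mir200a in 1 cluster (chr4:156053905-156055750, minus strand). Mir200a went from 82.4, 38.0 and 43.4 CPM to 31.7, 7.63 and 23.0 CPM and just missed the threshold (-1.40, edgeR, adjusted p = 0.054). Without corpus replicate 2 Mir429 (-1.99) and Mir200b (-1.37) were not called, Mir200b also not without caput replicate 1 (-1.59) or corpus replicate 3 (-1.92), and without corpus replicate 1 Mir200a was called (-1.85).

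Mir99b, Mirlet7e and Mir125a, which lie within 1 cluster (chr17:17830188-17830879, plus strand), were all called lower. Mir125a went from 31.0, 24.5 and 32.5 CPM to 7.61, 14.03 and 13.7 CPM (-1.31), Mirlet7e from 4.52, 3.499 and 5.69 CPM to 0.299, 1.51 and 2.01 CPM (-1.85), and Mir99b from 5.19, 5.25 and 4.64 CPM to 2.24, 2.26 and 1.81 CPM (-1.24). The segments did not overlap for any of these. Their adjusted p-values (edgeR) were 0.027, 0.026 and 0.044. The calls depended on single libraries: Mir99b lost it without any 1 library (-1.30 to -1.07), Mir125a without caput replicate 1 (-1.27) or 3 (-1.24) or corpus replicate 1 (-1.08) or 3 (-1.39), and Mirlet7e without caput replicate 1 (-1.86) or 3 (-1.66) or corpus replicate 1 (-1.39) or 2 (-2.04). Of the other members of the let-7 family, 11 tested, none was called. In the list of the miR-10, miR-99/100 and miR-125 families, 2 of 8 were lower and 0 higher, and Mir125b-2, its most abundant member and the most abundant Mir gene, stood at 183, 126 and 156 CPM against 116, 154 and 163 CPM (-0.10).

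Mir17 and Mir20a, members of a cell growth cluster with a shared seed, were called lower at -1.93 and -1.46 (edgeR, adjusted p = 0.023 and 0.044). Mir17 stood at 7.85, 4.37 and 3.29 CPM in caput and 0.896, 1.22 and 2.01 CPM in corpus fluid. In the same cluster of 6 tested genes Mir19b-1, the most abundant, stood at 12.2, 11.9 and 8.98 CPM against 17.2, 6.03 and 9.66 CPM (-0.02). Mir20a lost the call without any 1 library (-1.67 to -1.24), and Mir17 without caput replicate 1 (-1.49) or corpus replicate 1 (-1.71) or 2 (-1.85). Of Mir183, Mir96 and Mir182, a sensory cell cluster, Mir182 was called lower (-2.11, edgeR, adjusted p = 0.015) and Mir183 (-1.95) and Mir96 (-1.40) were not. Mir182 lost the call without caput replicate 2 (-1.87) or any corpus replicate (-2.22 to -1.93), and Mir96 gained it without corpus replicate 1 (-2.17).

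Higher in corpus fluid was Mir34b, a miRNA of ciliated and germ cells, at 0.798, 1.05 and 0.898 CPM in caput and 5.67, 2.73 and 8.25 CPM in corpus fluid. The lowest corpus library was more than 2 times the highest caput library (2.57 ± 0.48, edgeR, adjusted p = 0.0019), and the level in WT cauda fluid was 14.7 ± 5.86 CPM (SD, n = 3). Mir34c, its neighbour within the same cluster, stood at 0.532, 1.05 and 1.05 CPM against 1.94, 0.659 and 0.403 CPM and overlapped (0.21). Mir16-1 rose from 8.52, 7.35 and 8.23 CPM to 18.2, 17.8 and 23.0 CPM (1.29, edgeR, adjusted p = 0.045) and Mir139 from 0.931, 0.700 and 0.449 CPM to 2.24, 2.45 and 2.82 CPM (1.81, edgeR, adjusted p = 0.038). Both separated fully and both lost the call without any 1 library, with log2 fold changes of 1.23 to 1.35 and 1.58 to 2.10. They, with Mir183, Mir196b, Mir465c-1 and Mir883a, were picked for mention after their values were seen.

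Mir196a-2 and Mir196b, which lie in Hox clusters, were near 0 in caput fluid. Mir196a-2 had 1 count over the caput libraries and 31 over the corpus libraries, a ratio of 27.7 with an exact 95% counting interval of 4.62 to 1129. Mir196b had 2 and 25 counts, a ratio of 11.2 (2.79 to 97.3). The corpus libraries held 0.747, 0.942 and 3.22 CPM of Mir196a-2 and 1.34, 0.942 and 1.21 CPM of Mir196b, all above the caput libraries. Both were called in the fit (edgeR, adjusted p = 0.0053 and 0.036), Mir196b losing the call without any 1 library (2.72 to 3.74). With so few caput counts, both passed the filter on low counts through groups where they were higher. The calls therefore describe these genes and are no further support for the difference. In WT tissue Mir196b was higher in corpus by 5.58 and Mir196a-2 by 3.79 (edgeR, adjusted p = 0.0013 and 0.0021). Their means in caput tissue were also near 0, at 0.00866 and 0.0164 CPM.

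An X-linked miRNA cluster known from germ cells was near 0 in caput fluid. Of its 19 genes 18 were listed and 13 passed the filter on low counts. No tested member exceeded 1.05 CPM in any caput library, so that members passed the filter through the groups where they were higher, and the 7 called higher and 0 called lower describe those genes and do not support a direction of the cluster. Mir743b had 0 counts over the caput libraries and 29 over the corpus libraries, at 2.09, 0.188 and 2.62 CPM. The pooled corpus level was 8.64-fold a floor of 3 counts over the caput group. That figure leaves out the error of the corpus counts and the spread between libraries, so it is no lower bound. Mir465b-1 had 2 and 26 counts, a ratio of 11.6 (95% counting interval 2.91 to 101), Mir465c-1 had 1 and 19 (16.98, 2.70 to 705) and Mir883a had 2 and 23 (10.3, 2.54 to 89.9). Mir465 stood at 0.266, 0 and 0.599 CPM in caput and 1.34, 0.848 and 3.22 CPM in corpus fluid. Copies of Mir465b and of Mir465c gave identical counts and are not separate evidence. The summed level of the list ranged from 0.329 to 3.02 CPM (scaled by library totals) in caput and from 6.29 to 29.8 in corpus fluid, with no member at 0 in all 6 libraries, and the part of germ cell RNA in these or other differences was not tested. Without corpus replicate 3, Mir465 (1.90), Mir465b-1 (3.21), Mir465c-1 (3.50) and Mir883a (3.02) were not called, nor without caput replicate 2 (1.98, 3.05, 3.42 and 2.95). Mir465c-1 (3.34) and Mir883a (2.88) were also not called without caput replicate 3, Mir465 (2.40) not without caput replicate 1, and Mir465 (2.63) and Mir883a (3.28) not without corpus replicate 1.

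**Figure D5:**
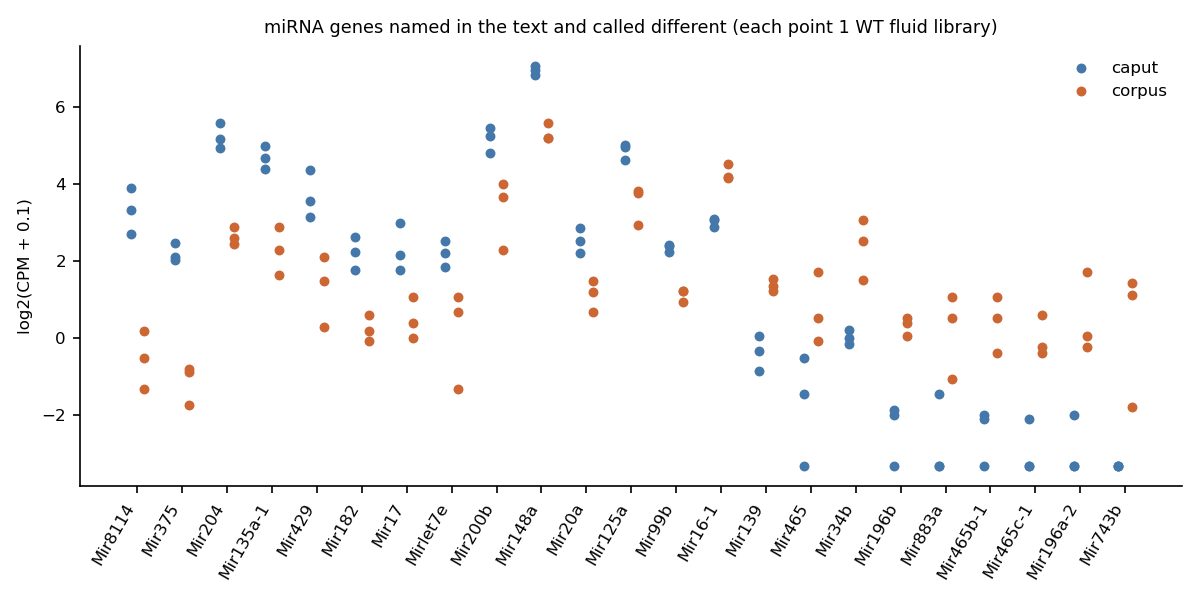
Level of 23 named miRNA genes called different, as log2(CPM + 0.1) (vertical axis), in the 3 caput (blue) and 3 corpus (orange) WT fluid libraries, ordered by log2 fold change. Points at the lower edge had 0 counts. The genes left of Mir16-1 are lower and those from Mir16-1 on are higher in corpus fluid, and the highest genes at the right, Mir196a-2 and Mir743b, have caput libraries at or near 0.

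No tested member of the smooth muscle, red blood cell, leukocyte and endothelial lists was called. Of smooth muscle miRNAs 6 were tested and 0 called, with Mir143 at 74.8, 37.8 and 49.7 CPM in caput and 89.3, 39.9 and 71.5 CPM in corpus fluid (0.30). The red blood cell list was summed at 20.2 to 23.2 CPM (scaled by library totals) in caput and 19.4 to 53.1 in corpus fluid, with 0 of 2 members called and Mir451a at 0.60. Leukocyte miRNAs were summed at 6.77 to 10.7 and 14.1 to 20.6, without overlap, and 0 of 3 were called. Of these Mir223, a miRNA of myeloid cells, stood at 3.06, 5.07 and 2.99 CPM in caput and 7.76, 13.2 and 10.3 CPM in corpus fluid (1.49, edgeR, adjusted p = 0.05001), just outside the threshold and called under DESeq2 (1.60). The endothelial Mir126a differed by -0.47. The part of blood or other cells in the differences described here was not tested.

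Other abundant miRNAs did not pass the test. Mir21a (-0.46), Mir29a (-0.48), Mirlet7c-2 (-0.46) and Mir30c-2 (-0.84) were not called, and 0 of 6 miR-30 members and 0 of 4 miR-29 members were. Of the miR-17 to miR-92 clusters 2 of 10 members were lower and 0 higher, of the miR-34 and miR-449 family 1 of 4 was higher and 0 lower, and of miR-22, miR-21 and miR-148 1 of 5 was lower and 0 higher. The 1 tested member of miR-204 and miR-211 was Mir204. None of 2 Y RNAs, 4 RNase P and RNase MRP genes and 5 genes of 7SK, 7SL and vault RNAs was called.

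Copies of U6, the snRNA at the catalytic core of the spliceosome, were the largest group of falling snRNAs. Of 39 tested genes that share their sequence with U6, 33 were lower and 0 higher (median -1.83). They hold 24 distinct sets of counts, since copies share reads. Gm25709 went from 8.52, 6.12 and 8.53 CPM to 1.19, 1.98 and 3.02 CPM (-1.92 ± 0.41, edgeR, adjusted p = 0.0043) and Gm25547 by -1.89. In KO fluid 2 of these 39 genes were lower, with a median of -0.23, and the median in WT tissue was 0.24. None of 25 U1 genes was called (median -0.40), and Rnu1a1, the most abundant snRNA gene, stood at 1476, 1817 and 2496 CPM against 1039, 1811 and 1824 CPM (-0.31).

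Against this fall, the predicted snRNAs Gm23485 and Gm24056 rose. Gm23485 went from 2.53, 1.22 and 3.14 CPM to 36.1, 10.6 and 20.9 CPM (3.27 ± 0.56, edgeR, adjusted p = 0.0013), and Gm24056 from 4.12, 2.10 and 4.04 CPM to 36.7, 10.6 and 21.7 CPM (2.73). Corpus libraries lay above all caput libraries for both, corpus replicate 1 the highest. Their levels were nearly equal in each corpus library, and the entries are not taken as separate evidence. In KO fluid Gm23485 and Gm24056 differed by 0.68 and 0.42 and in WT tissue by -0.56 and -0.55, without a call in either. They share 2.84 and 4.55% of their 15-base stretches with the closest of the RNA families compared, so no family name was given. The snRNAs in that set were U1, U2, U5, U6, U7, U11 and U12. It did not hold every spliceosomal snRNA, and a match to another one was not tested.

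Among the remaining small RNAs, Rny3, a Y RNA bound by the Ro protein, stood at 4378, 2806 and 4605 CPM in caput and 179, 1869 and 1884 CPM in corpus fluid. All corpus libraries were lower, replicate 1 by far, and the difference of -1.58 did not pass the test (edgeR, adjusted p = 0.12). Rny1 (-0.58), Rn7sk of transcription control (-0.68), Rmrp and Rpph1, the RNAs of RNase MRP and RNase P (-0.40 and -0.32), and the vault RNA Vaultrc5 (-0.50) were not called. Of the snoRNAs, which guide rRNA modification, Snora81 (-2.33) and Snord2 (-2.85) were called lower. Snord2 lost the call without caput replicate 3 (-1.99) or any corpus replicate (-3.56 to -2.32), Snora81 without any caput replicate or corpus replicates 1 and 2 (-2.74 to -1.77), and Rnu3b1, the most abundant snoRNA, stood at 53.1, 59.5 and 47.9 CPM against 57.9, 54.4 and 50.1 CPM (0.02). The piRNA precursor pi-Foxo3.2, picked after its values were seen, fell from 37.0, 122 and 75.7 CPM to 9.41, 31.5 and 23.4 CPM (-1.87, edgeR, adjusted p = 0.021). It lost the call without caput replicate 2 (-1.39) or 3 (-1.89) or corpus replicate 1 (-1.51) or 3 (-1.95). The tRF_other of the selenocysteine tRNA, tRNA-SeC-TCA-1, was the 1 tRF_other called lower (-1.67), without any margin, since the call was lost without any 1 library (-1.78 to -1.54).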

How the data were processed

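The authors trimmed adapters and UMIs with cutadapt, counted reads with a modified tRAX pipeline on mm10 and deposited raw counts per RNA, in which a read counts on every feature it matches best; UMI-tools also stands in the submitters' processing notes. Each count column was matched to its sample by title, and tRF types follow the study's definitions. Members and gene lists were chosen with earlier results of these data known. Counts were filtered with filterByExpr (minimum count 10, total 15), scaled by TMM and tested in edgeR 4.0.16 (R 4.3.3) with a quasi-likelihood fit on all 18 fluid libraries and Benjamini-Hochberg adjustment. CPM are TMM-scaled, except summed levels of lists, which are scaled by library totals. Scripts were tested on simulated data, where 50% of RNAs with a true absolute log2 fold change of 2 were called. Of those with 1.5, 23.7% were called, and 3 unchanged RNAs were called too. An RNA that was not called is therefore not shown to be unchanged. Tissue (17 libraries) was fitted apart. Shares of counts were tested by 2-sided exact permutation. Predicted genes were assigned to an RNA family where they shared at least 50% of their 15-base stretches with it (GENCODE vM21 transcripts). Of 1067 Ensembl names, 1053 matched the annotation. RNAs were named by rule: in each class the 2 higher and 2 lower called RNAs with the smallest p and no overlap, the most abundant RNAs, 13 anticodons, the rRNA sequences, 8 small RNA genes and up to 3 members of each miRNA list. Those chosen after their values were seen, Met-CAT, Asn-GTT and the other anticodons outside the 13 included, are a description. Alternatives were other scalings, DESeq2 1.42.0, no filter, WT libraries alone, a replicate block, merged identical entries and leaving out each library. Each fluid library pools mice as 1 biological replicate per the study's methods. Whether pools were made on separate days is not given in the sources used here, and p-values measure the spread between pools. The result for 1 predicted gene is not reported here.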

Additional observations from a re-analysis of the deposited data

Results flagged for a closer look

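The corpus to caput difference itself was tested for a difference between KO and WT fluid. It was higher in KO than in WT for 34 RNAs (1.68% of those tested), all of them intergenic piRNA precursors, and lower in KO for 3 (0.148%), antisense entries of tRNA-Thr-AGT isodecoders (edgeR, adjusted p below 0.05). A precursor of the group 14-qA3 had means of 2.83 CPM in caput and 1.26 CPM in corpus of WT, and of 1.15 and 22.4 CPM in KO. The antisense entry tRNA-Thr-AGT-1 had 1.48 and 3.32 CPM in WT, and 6.49 and 0.904 CPM in KO. Entries of these groups share counts.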

How the results depend on the processing

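The scaling decided the balance of calls: 166 higher and 193 lower under TMM (46.2% higher), 171 and 87 under library totals (66.3%) and 322 and 79 under TMM from the RNAs other than tRNA and rRNA fragments (80.3%). Lower calls numbered 128 with identical entries merged and 329 at an unadjusted p under 0.05, and with sums 74 were higher and 61 lower. The difference between KO and WT was called for 24 RNAs with DESeq2 size factors, 2 with library totals and 20 without a filter. With the replicate block, 189 were higher and 218 lower over all fluid libraries and 233 and 293 over the 6 libraries alone, and 63 of 63 named calls held in the former. The deviations of same-numbered libraries correlated at 0.065, 0.082 and 0.058, each sample's best. Those of differently numbered libraries correlated at -0.069 to -0.0092. The main fit did not take equal numbers as pairs, and whether they mark the same mice was not settled by these values. Under TMM from the other RNAs the medians of tRF_5', tRF_3' and miRNAs turned to 0.11, 0.21 and 0.24 (miRNAs 0.11 under library totals), and single values turned likewise for Mir21a (0.067), Mir29a (0.059), Mirlet7c-2 (0.022), Mir126a (0.035), Mir125b-2 (0.41), Mir19b-1 (0.56), Vaultrc5 (0.0044), Rmrp (0.12), Rpph1 (0.20), Rnu1a1 (0.19), tRNA-Leu-CAG-2_threeprime (0.27), Glu-CTC tRF_3' (0.074), Glu-CTC tRF_other (0.050), Lys-CTT tRF_5' (0.090) and Gln-TTG tRF_5' (0.018). Mir125b-2 also turned under library totals (0.21) and no filter (0.0028), Rnu1a1 under library totals (0.028), Mir19b-1 under DESeq2 size factors (0.10), library totals (0.24), no filter (0.15), DESeq2 (0.10) and merged entries (0.12), and, with the replicate block, Glu-CTC tRF_other (0.041) and Lys-CTT tRF_5' (1.2e-05). The share of miRNAs differed by 0.0127 points over Mir genes alone. None of the turned values of single RNAs and sums had been called. The cause was not tested. Leaving out 1 library gave 87 to 138 higher calls (87 without corpus replicate 1) and 87 to 141 lower (87 without corpus replicate 3), and 13 to 27 higher and 5 to 9 lower tRF sums. The difference in the share of tRFs, 1.88 points, ranged from -0.503 to 3.67, turning without corpus replicate 1. Of 63 named calls, 39 to 47 held without 1 library. Values near 0 that changed sign in these fits ranged from -0.23 to 0.034 for Mir125b-2, -0.50 to 0.28 for Mir19b-1, -0.23 to 0.47 for SSU_mito, -0.12 to 0.21 for 5S_rRNA, -0.055 to 0.17 for Rnu3b1, -0.42 to 0.015 for tRNA-Leu-CAG-2_threeprime, -0.22 to 0.19 for Glu-CTC tRF_3', -0.20 to 0.27 for Glu-CTC tRF_other, -0.33 to 0.29 for Lys-CTT tRF_5', -0.37 to 0.034 for His-GTG tRF_3', -0.58 to 0.31 for Gln-TTG tRF_5' and -0.57 to 0.051 for Asp-GTC tRF_5'.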
